A study of Mus musculus with 6 samples.

Results

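The subunit genes of the Mediator complex and of RNA polymerases I, II and III were examined in tibialis anterior, a mainly fast-twitch muscle of the shin, of castrated and sham-operated mice. Members were the genes whose platform symbol begins with Med followed by a number, or with Polr1, Polr2 or Polr3. They numbered 58 of the 22180 genes tested, with 31 in the Mediator, 5 in polymerase I, 13 in polymerase II and 9 in polymerase III. The probe set of each gene was chosen by its mean log2 value, the highest over all 6 arrays, and the gene set was taken up with its differences between these groups known. The symbols also brought in Med9os, an RNA gene antisense to Med9, and the pseudogene Polr2d-ps2. Polr2h was not analysed here, since each of its probe sets names a further gene.

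The 6 samples came from male C57Bl/6 mice aged 18 weeks. The 3 sham samples are from mice given a sham operation at 11 weeks of age and carry the diet label fasted. The 3 castrated samples are from mice castrated at 11 weeks of age and carry the diet label refed. All mice recovered for 7 weeks and were fasted from the evening before, and the series text describes food for 30 minutes and then 4 hours without food, for the refed mice in one place and for all mice in another. Surgery and diet label split the samples identically, so their effects cannot be told apart, and every difference here is castrated and refed minus sham and fasted. Values are log2 expression values from Affymetrix whole-transcript arrays, on which a difference of 1 is a doubling. The 10 muscle fibre markers checked, among them Acta1, Ckm and Myh4, had mean log2 values between 12.1 and 13.6, near the top of the scale. Array medians over all genes lay between 5.40 and 5.47. Castrated sample 1 stood apart from the other 5 in slow-fibre markers, with the highest value of the 6 arrays for 7 of 7 markers and a median of 0.89 on the log2 scale after each gene was centred over the arrays, against values from −0.29 to −0.068 in the others.

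Mediator is a large complex that carries signals from DNA-bound activators, nuclear hormone receptors among them, to RNA polymerase II. Its head and middle modules touch the polymerase, its tail contacts activators, and a separable kinase module turns the contact on and off. Polymerase II makes messenger RNA, polymerase I the large ribosomal RNA precursor, and polymerase III transfer RNAs and other short RNAs. Several small subunits serve all the polymerases, so their genes carry the number of one enzyme and the work of others.

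The windows around the start sites of Polr2l, Polr1d, Med22 and Med25 are shown because these were the 4 members with an unadjusted limma p under 0.05. Each is 300 bases from RefSeq on build GRCm38.p6, reading 5′ to 3′ on the gene's strand from 250 bases before the start to 50 after. They lie at chr7:141475104-141475403 on the minus strand for Polr2l, chr5:147077096-147077395 on the plus strand for Polr1d, chr2:26910593-26910892 on the minus strand for Med22 and chr7:44892375-44892674 on the minus strand for Med25. Capitals mark matches to the GC box (GGGCGG), the NRF1 motif (GCGCA, any base, GCGC), the ETS motif (CCGGAAG), the CCAAT box (CCAAT), the TATA box (TATAAA) or the YY1 motif on either strand. The E-box (CACGTG), the cAMP response element and the androgen response element (GNACA, any 3 bases, TGTNC) were searched for but not capitalized. These 4 windows held no match to them.
Polr2l: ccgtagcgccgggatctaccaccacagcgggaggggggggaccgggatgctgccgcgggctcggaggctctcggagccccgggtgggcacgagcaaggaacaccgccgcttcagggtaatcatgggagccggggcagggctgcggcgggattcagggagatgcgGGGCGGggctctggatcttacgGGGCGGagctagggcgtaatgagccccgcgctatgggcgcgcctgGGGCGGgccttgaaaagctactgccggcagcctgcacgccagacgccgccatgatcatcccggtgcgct
Polr1d: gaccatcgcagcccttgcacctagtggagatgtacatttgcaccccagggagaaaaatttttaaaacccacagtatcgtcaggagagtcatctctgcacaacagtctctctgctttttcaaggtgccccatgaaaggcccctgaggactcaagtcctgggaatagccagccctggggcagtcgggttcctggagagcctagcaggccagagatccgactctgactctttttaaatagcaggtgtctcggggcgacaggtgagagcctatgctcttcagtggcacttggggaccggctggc
Med22: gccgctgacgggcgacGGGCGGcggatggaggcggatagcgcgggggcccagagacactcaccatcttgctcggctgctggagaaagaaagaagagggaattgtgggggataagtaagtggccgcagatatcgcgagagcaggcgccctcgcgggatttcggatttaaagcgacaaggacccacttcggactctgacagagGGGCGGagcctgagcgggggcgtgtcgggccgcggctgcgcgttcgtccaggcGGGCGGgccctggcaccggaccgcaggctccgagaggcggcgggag
Med25: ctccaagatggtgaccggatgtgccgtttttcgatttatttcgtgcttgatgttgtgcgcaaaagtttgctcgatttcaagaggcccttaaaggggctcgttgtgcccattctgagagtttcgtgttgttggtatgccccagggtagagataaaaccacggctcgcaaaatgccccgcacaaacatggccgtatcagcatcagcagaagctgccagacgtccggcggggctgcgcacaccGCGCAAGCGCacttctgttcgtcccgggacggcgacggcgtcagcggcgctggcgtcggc
The Polr2l and Med22 windows each held 3 GC boxes and the Med25 window held 1 NRF1 motif. None of these motifs was in the Polr1d window.

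A window was given for 48 of the 58 members. Where several start sites were listed, as for Med7, Med10, Med15, Med27 and Polr2m, only the window of the first was used. Neighbours were sought among all listed start sites of other genes. Matches of different motifs were counted separately, also where they overlapped, and a match is a description of letters, not a site. GC boxes stood in 30 of the 48 windows (62.5%), against 48.7% of the windows of 15379 tested protein-coding genes. The ETS motif stood in 14 windows (29.2%, against 12.3%) and the NRF1 motif in 7 (14.6%, against 7.11%). The CCAAT box was in 16 (33.3%, against 38.5%) and the TATA box in 5 (10.4%, against 12.9%). The E-box was in 6 (12.5%, against 8.3%) and the cAMP response element in 1 (2.08%, against 2.46%). The YY1 motif and the androgen response element were in 0 of 48, where 1.34% and 0.429% of the windows of tested protein-coding genes held them. The median window of a member had 59.3% G and C and 22 CG pairs, against 57.0% and 14 over the tested protein-coding genes. Another gene began on the opposite strand within 1000 bases upstream for 17 of 48 members (35.4%), against 12.7% of the tested protein-coding genes. Med9 and Med9os are both counted, each as the neighbour of the other. The 48 windows thus include that of the RNA gene Med9os, while the comparison holds protein-coding genes alone. Among these neighbours were the ribosomal protein gene Rpl7a for Med22, the elongation factor gene Paf1 for Med29 and Tspan4 for Polr2l.

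As deposited, values were slightly lower in castrated than in sham muscle for most members, and no single member passed the test over all genes. Of 58 members 43 had a log2 difference below 0, or 74.1%, and the member median was −0.058, a change of −3.94%. Over all 22180 genes 51.5% were below 0 and the median was −0.0056. In the highest of 4 bands of level, which held 33 members, 64.2% of all genes were below 0. After quantile normalization 53.3% of all genes were below 0, with 24 of 31 Mediator and 3 of 5 polymerase I genes. Of the polymerase II and III genes 5 of 13 and 4 of 9 then were. Polr2l differed most, by −0.42, and the only differences over 0.1 in the other direction were those of Med30 and Polr2d-ps2. By limma with Benjamini-Hochberg adjustment 0 of 58 members passed, against 0.0135% of all genes, and the smallest member adjusted p was 0.607. At an unadjusted p under 0.05 there were 4 members, all lower, against 3.51% of all genes lower and 3.62% higher. All castrated samples lay below all sham samples for 9 members, against 7.02% of all genes, and above them for 1 member, against 5.73%. The members and the contrast were chosen with earlier results of these data known, so these counts are a description and nothing is read from them beyond their size.

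**Figure D1:**
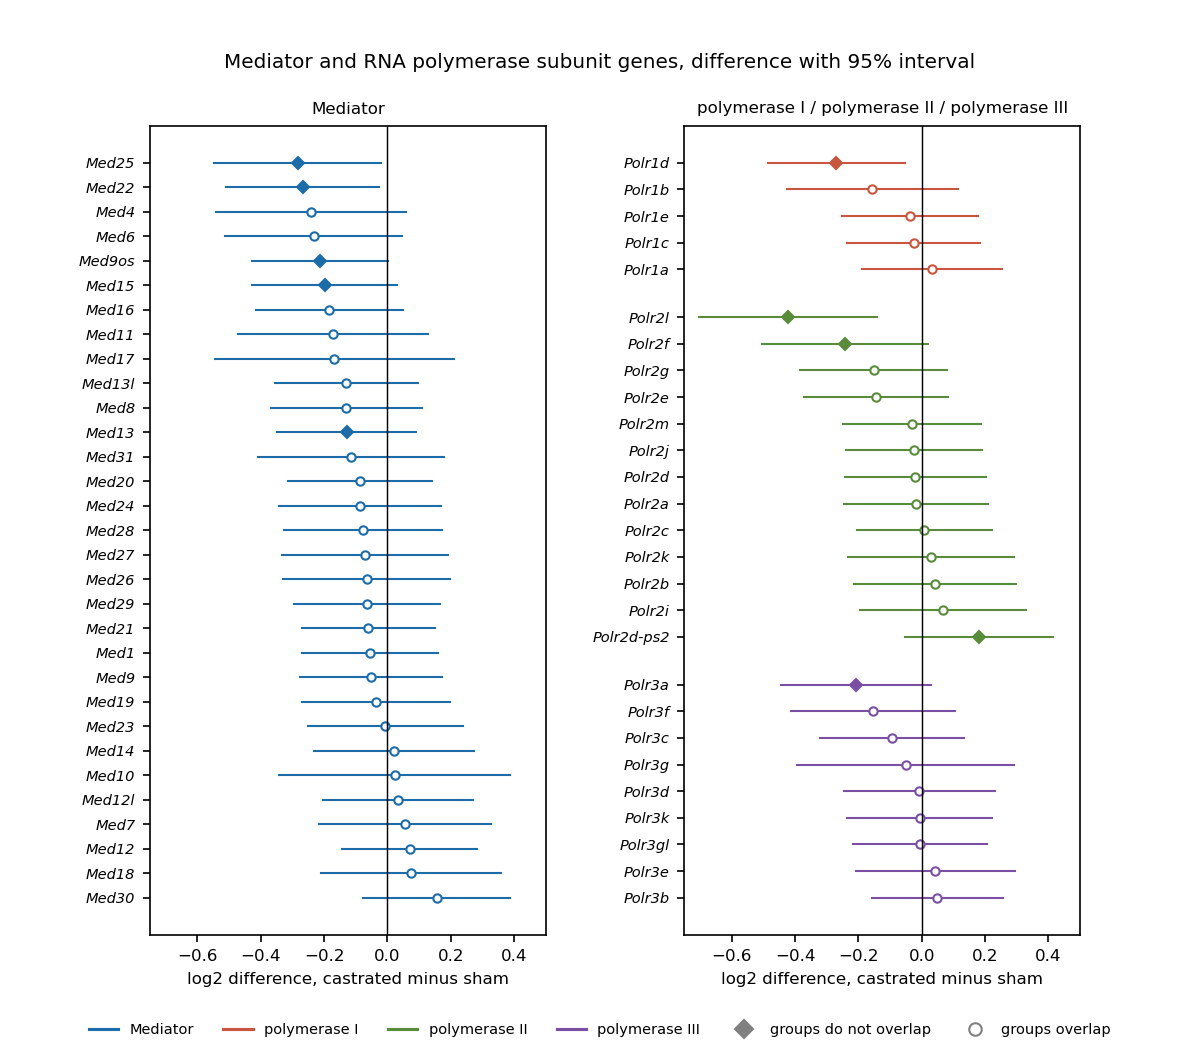
Log2 difference, castrated minus sham, with its 95% interval for each of the 58 members, with the Mediator on the left and polymerases I, II and III on the right. Diamonds are the 10 members whose 3 castrated and 3 sham samples do not overlap; 4 intervals, those of Polr2l, Polr1d, Med22 and Med25, lie wholly below 0.

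Among the Mediator genes 24 of 31 had differences below 0 and 7 above, with a median of −0.078, or −5.24%, and a range of −0.28 to 0.16. With array medians over all probe sets aligned, not those over genes, 27 of 31 were below 0, where 61.6% of all genes were. After quantile or cyclic loess normalization 24 of 31 were. Without castrated sample 1 the count was 22 and the median −0.063. By module the medians were −0.17 for the 7 head genes (6 below 0), −0.056 for the 9 middle genes (7 below 0), −0.18 for the 5 tail genes (5 below 0), and −0.048 for the 4 kinase-module genes (2 below 0). The 4 genes placed between head and tail, Med27, Med28, Med29 and Med30, were kept apart, with a median of −0.068 (3 below 0). Counted with the head or the tail, they would change its median and its count. Med14 and Med9os were in no module. This split by place in the complex follows textbook assignments and was made after the values were seen. None of these module differences was tested, and without castrated sample 1 the head median was −0.093. The kinase-module median was −0.013 without sham sample 2 and −0.13 with only genes above the 50th percentile of level.

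Of the head, Med22 (Entrez 20933) had the smallest p of the complex. Its log2 values were 6.47, 6.37 and 6.34 in sham samples 1 to 3 and 5.96, 6.18 and 6.23 in castrated samples 1 to 3. Castrated sample 1 was the lowest and the groups did not overlap. The means were 6.39 ± 0.065 and 6.12 ± 0.14 (SD, n = 3 each), a difference of −0.27 with a standard error of 0.11 (limma adjusted p = 0.685). Without castrated sample 1 the Med22 difference was −0.19. Med6, a conserved head subunit near the polymerase, had values of 6.67, 6.78 and 7.02 in sham and 6.53, 6.73 and 6.51 in castrated samples. Castrated sample 2 lay above sham sample 1, so the groups overlapped, and the difference of −0.23 became −0.13 without sham sample 3.

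Of the middle module, Med4 had values of 6.72, 6.60 and 6.67 in sham and 6.20, 6.69 and 6.38 in castrated samples. Castrated sample 2 fell among the sham values, and the difference of −0.24 became −0.13 when castrated sample 1 was dropped and −0.37 when castrated sample 2 was. Med1, the subunit through which nuclear hormone receptors contact the complex, read 7.76, 7.78 and 7.90 in sham and 7.78, 7.71 and 7.78 in castrated samples. Its groups overlapped, with a difference of −0.056 and a 95% interval from −0.27 to 0.16. Med14, the scaffold that joins the modules, read 8.29, 8.37 and 8.51 in sham and 8.29, 8.39 and 8.56 in castrated samples. Each group spanned nearly the same values, and its difference was 0.020 (95% interval −0.23 to 0.27), with the sign turned to −0.018 when array medians were aligned. Med9os, the antisense gene beside Med9, read 5.30, 5.19 and 5.14 in sham and 4.99, 4.97 and 5.04 in castrated samples. Its groups did not overlap, and its difference of −0.21 (standard error 0.095) had an unadjusted limma p of 0.0515 and an adjusted p of 0.705. The mean level of Med9os, 5.10, lay below all array medians over genes.

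Of the tail, Med25, which binds several activators, read 8.17, 7.93 and 7.99 in sham and 7.57, 7.83 and 7.83 in castrated samples. The groups did not overlap, and castrated sample 1 was again the lowest. The means were 8.03 ± 0.13 and 7.74 ± 0.15 (SD, n = 3 each), a difference of −0.28 with a standard error of 0.12 (limma adjusted p = 0.687). This difference became −0.20 without castrated sample 1. Med15, a tail subunit known for contacts with the sterol factor SREBP, read 7.68, 7.71 and 7.71 in sham and 7.56, 7.36 and 7.59 in castrated samples. The sham values were close together and the castrated values all lay below them, with a difference of −0.20 (standard error 0.10, limma adjusted p = 0.745) that became −0.13 without castrated sample 2. Med16 read 6.78, 6.79 and 6.59 in sham and 6.45, 6.60 and 6.55 in castrated samples, and its difference was −0.18. Med30, which lies between head and tail in animals, was the Mediator gene with the highest positive difference, 0.16. It read 5.81, 5.70 and 5.95 in sham and 5.94, 5.96 and 6.04 in castrated samples, and only sham sample 3 reached into the castrated range. The difference ran from 0.096 without sham sample 2 to 0.22 without sham sample 3.

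The kinase module holds Med12, which activates the kinase, Med13, which tethers the module to the core, their paralogs Med12l and Med13l, and the partners Ccnc, Cdk8 and Cdk19. Med13 read 9.86, 9.92 and 9.93 in sham and 9.67, 9.85 and 9.80 in castrated samples, without overlap, a difference of −0.13 with a standard error of 0.097 that became −0.076 without castrated sample 1. Its paralog Med13l differed by −0.13 as well, with overlapping groups. Med12 read 7.70, 7.81 and 7.66 in sham and 7.78, 7.78 and 7.82 in castrated samples, a difference of 0.070 (95% interval −0.14 to 0.28). Med12l differed by 0.033, and by −0.0057 after quantile normalization, −0.0048 after cyclic loess and −0.0049 with array medians aligned.

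Cdk19, one of the paired kinases of the module, showed a larger difference than any member. It carries no Med symbol and was taken from a list of the module's partners. Its log2 values were 7.79, 7.96 and 7.59 in sham samples 1 to 3 and 7.13, 7.25 and 7.16 in castrated samples 1 to 3. The castrated values lay close together and below every sham value. The means were 7.78 ± 0.18 and 7.18 ± 0.067 (SD, n = 3 each), a difference of −0.60, or −34.0%, with a standard error of 0.12 and a 95% interval from −0.86 to −0.33. Its unadjusted limma p was 0.00064 and its adjusted p over all genes 0.391, so it did not pass. The adjusted p ran from 0.0656 with only genes above the 50th percentile of level to 0.721 without castrated sample 2. Leaving out a sample gave differences from −0.69 to −0.51. The other kinase, Cdk8, differed by −0.11 and read 7.70, 7.57 and 7.60 in sham and 7.38, 7.68 and 7.49 in castrated samples, with overlap. The Cdk8 difference was −0.19 with castrated sample 2 dropped and −0.040 with castrated sample 1 dropped. Ccnc, the cyclin partner of both, differed by 0.060 and is named with its values seen.

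**Figure D2:**
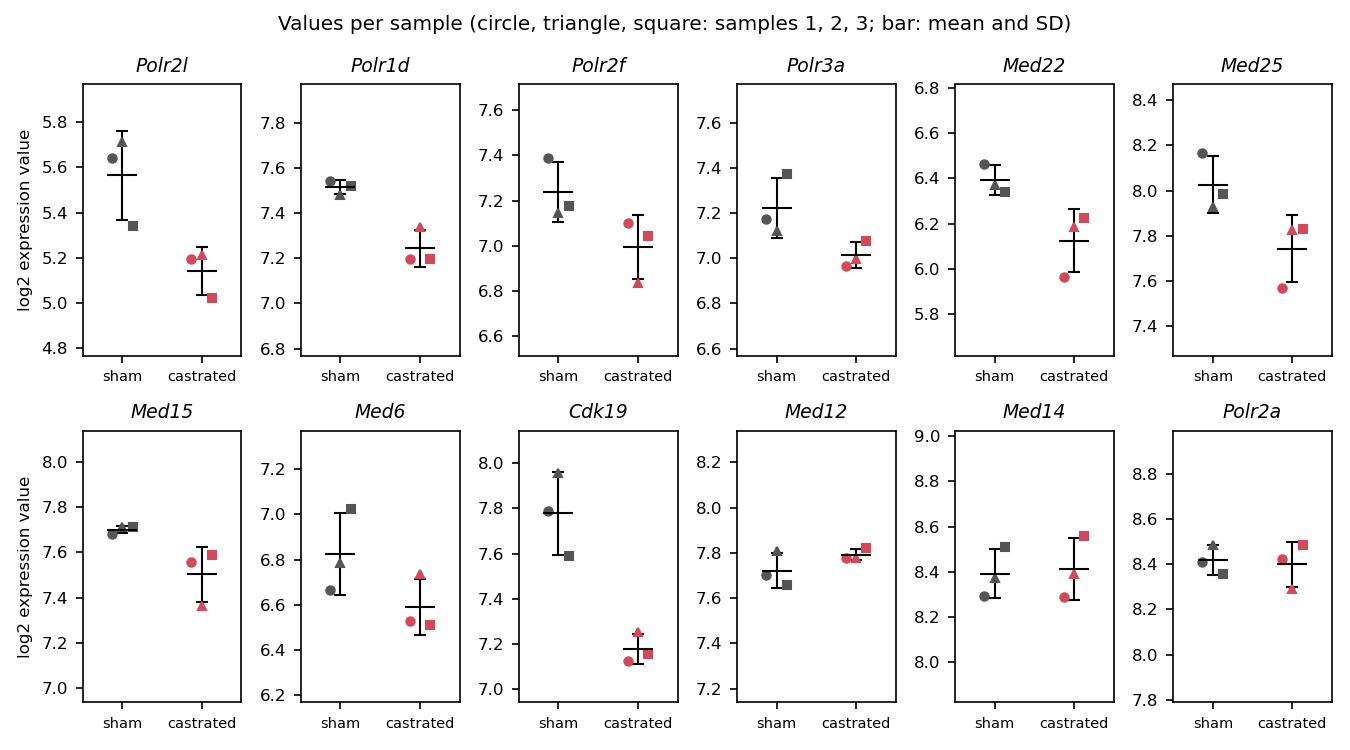
Log2 expression value of 11 members and the kinase gene Cdk19 in each sample, with circle, triangle and square for samples 1, 2 and 3 of a group, the mean as a bar and the SD as whiskers; every panel spans the same log2 range. Polr2l, Polr1d, Polr2f, Polr3a, Med22, Med25, Med15 and Cdk19 have all castrated samples below all sham samples, and Med6, Med12, Med14 and Polr2a overlap.

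Of the 5 polymerase I genes 4 had differences below 0, with a median of −0.038, which was −0.081 without castrated sample 2. After quantile or cyclic loess normalization 3 were below 0. Polr1d (Entrez 20018), a small assembly subunit shared with polymerase III, read 7.54, 7.48 and 7.52 in sham and 7.20, 7.34 and 7.20 in castrated samples. The groups did not overlap, with means of 7.51 ± 0.031 and 7.24 ± 0.081 (SD, n = 3 each). The difference was −0.27, or −17.0%, with a standard error of 0.095 (limma adjusted p = 0.668). It ran from −0.32 to −0.25 when a sample was left out. Polr1b, the second largest subunit, read 7.00, 6.94 and 6.84 in sham and 6.65, 6.99 and 6.67 in castrated samples. Castrated sample 2 lay among the sham values, and the difference of −0.16 was −0.26 without it and −0.096 without castrated sample 1. Polr1a, the largest subunit, which forms the active centre with Polr1b, differed by 0.031 (95% interval −0.19 to 0.25), and by −0.0063 with array medians aligned. Polr1e differed by −0.038 (95% interval −0.25 to 0.18).

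Of the 13 polymerase II genes 8 had differences below 0 and the median was −0.020, but after quantile normalization 5 were below 0 with a median of 0.013, after cyclic loess 5 with a median of 0.010, and with array medians aligned 10 with a median of −0.057. No direction is given for this group. Polr2l (Entrez 66491), a small subunit found in all the polymerases, had the smallest p of all members. Its log2 values were 5.64, 5.71 and 5.34 in sham samples 1 to 3 and 5.20, 5.21 and 5.02 in castrated samples 1 to 3. Each castrated sample lay below each sham sample, and sham sample 3 came closest to them. The means were 5.56 ± 0.20 and 5.14 ± 0.11 (SD, n = 3 each), a difference of −0.42, or −25.3%, with a standard error of 0.12 and a 95% interval from −0.70 to −0.14 (limma adjusted p = 0.607). The array medians of 5.40 to 5.47 were higher than the castrated mean, and no detection call was at hand. Without a sample the difference ran from −0.53 to −0.35.

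Polr2f, also found in all the polymerases, read 7.39, 7.15 and 7.18 in sham and 7.10, 6.84 and 7.05 in castrated samples. The groups did not overlap, and the difference was −0.24 (standard error 0.12, limma adjusted p = 0.723). Polr2g, which with Polr2d forms the stalk of the enzyme, differed by −0.15 with overlapping groups, and by −0.086 without castrated sample 1. The catalytic subunits showed smaller differences. Polr2a, the largest subunit, whose C-terminal tail is phosphorylated during transcription, read 8.41, 8.49 and 8.36 in sham and 8.42, 8.29 and 8.49 in castrated samples. Its groups overlapped, with a difference of −0.019 (95% interval −0.25 to 0.21) that became 0.018 after quantile normalization and 0.021 after cyclic loess. Polr2b, its partner in the active centre, read 9.24, 9.49 and 9.49 in sham and 9.39, 9.57 and 9.39 in castrated samples and differed by 0.042 (95% interval −0.21 to 0.30). Polr2m, which binds the enzyme and makes it depend on Mediator, differed by −0.031, and by 0.0078 after quantile normalization and 0.0027 after cyclic loess. The pseudogene Polr2d-ps2 read 4.28, 4.29 and 4.28 in sham and 4.33, 4.60 and 4.46 in castrated samples and was the only member with all castrated values above all sham values, at a difference of 0.18 and a limma adjusted p of 0.765. Without castrated sample 2 its difference was 0.11. Its mean level of 4.37, at the 26.8th percentile, was the lowest of the members and below all array medians. No detection call was at hand for it either.

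Of the 9 polymerase III genes 7 had differences below 0, with a median of −0.0070. After quantile normalization 4 were below 0 with a median of 0.023, after cyclic loess 4 with a median of 0.021, and without sham sample 2 the median was −0.083. No direction is given for this group either. Polr3a, the largest subunit, read 7.17, 7.12 and 7.37 in sham and 6.97, 7.00 and 7.08 in castrated samples. The groups did not overlap, and the difference of −0.21 (standard error 0.10, limma adjusted p = 0.744) was −0.13 without sham sample 3. Its partner Polr3b read 7.71, 7.78 and 7.77 in sham and 7.77, 7.84 and 7.81 in castrated samples, a difference of 0.049 (95% interval −0.16 to 0.26). Polr3f differed by −0.15 and Polr3c by −0.095, both with overlap. Without sham sample 3 the Polr3f difference was −0.067, and without sham sample 1 that of Polr3c was −0.040. The paralogs Polr3g and Polr3gl take the same place in alternative forms of the enzyme. Polr3g differed by −0.051 with a wide interval (−0.39 to 0.29), and Polr3gl by −0.0062 (−0.22 to 0.21).

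The measured subunits that serve more than 1 polymerase had a lower median difference than the other polymerase genes. This grouping was made after the values were seen and has no test. Of the 6 measured, Polr2l, Polr2f, Polr2e and Polr2k are found in polymerases I, II and III, and Polr1c and Polr1d in I and III. The median of these 6 was −0.19, or −12.6%, with 5 of 6 below 0. Polr2h, also found in polymerases I, II and III, is left out, since its probe sets name Gm7511 too. These probe sets differed by 0.041 and 0.23, the other way from the median, and cannot be assigned to either gene. The 19 subunits found in 1 polymerase alone had a median of −0.019, with 13 below 0. Polr2e differed by −0.14, Polr1c by −0.026 and Polr2k by 0.028. Centred gene by gene, the shared subunits had a median of 0.17, 0.054 and 0.024 in sham samples 1 to 3 and −0.066, −0.079 and −0.068 in castrated samples 1 to 3, without overlap. Without sham sample 1 their median difference was −0.13, and after quantile or cyclic loess normalization 4 of 6 were below 0.

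**Figure D3:**
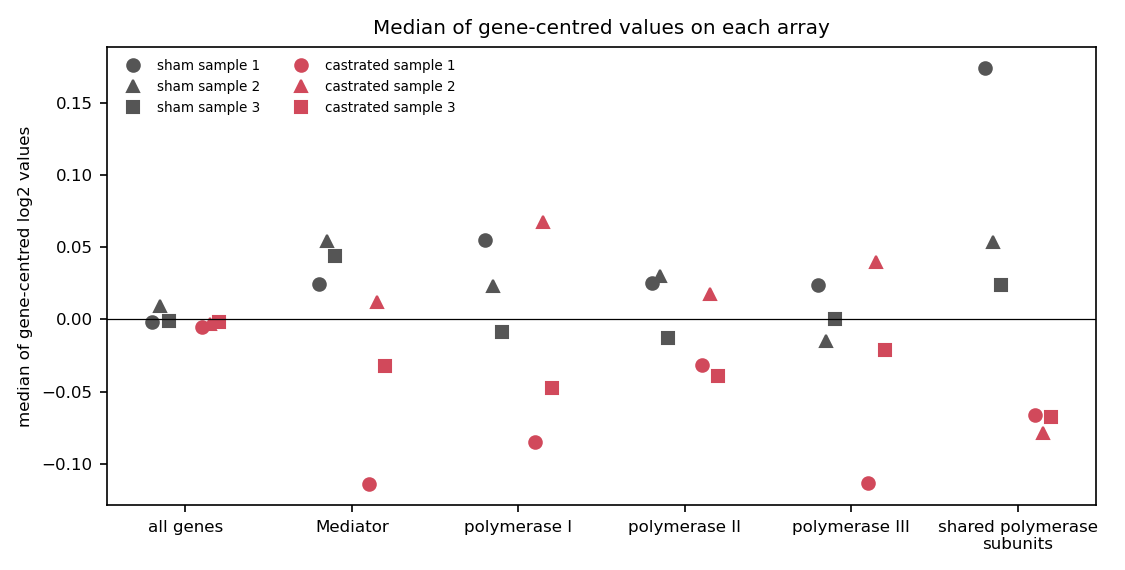
Median over each group of log2 values after each gene was centred on its mean over the 6 arrays, 1 point per array. Castrated sample 1 is lowest for the Mediator (−0.11), polymerase I (−0.085) and polymerase III (−0.11), castrated sample 2 lies above 0 in the Mediator and each polymerase group, and for the shared polymerase subunits all 3 castrated arrays lie below the 3 sham arrays.

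The arrays did not contribute evenly. Castrated sample 1 held the lowest of the 6 values for 15 of 31 Mediator genes (48.4%), 5 of 5 polymerase I genes and 4 of 9 polymerase III genes, but for 1 of 13 polymerase II genes. Over all genes it held the lowest value for 18.4%. Castrated sample 2, by contrast, had a Mediator median of 0.012 after centring, under 0.025 to 0.054 in the sham samples, and polymerase I and III medians of 0.067 and 0.040, above all sham samples. Castrated sample 1 is also the array with the high slow-fibre markers, and the part of these in the result was not tested. Without it the polymerase I median was −0.0090. The tendon and adipocyte markers were higher in castrated samples for 6 of 7 and 6 of 6 genes, with medians of 0.48 and 0.27. The adipocyte list held 7 genes, of which 6 were measured. The tendon medians per array overlapped between groups (sham −0.65 to 0.11, castrated −0.041 to 0.45), and the adipocyte ones did not (−0.34 to −0.021 and 0.049 to 0.21). Their part in the result was not tested. In whole muscle, fewer cells of a type and less RNA per cell cannot be told apart.

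**Figure D4:**
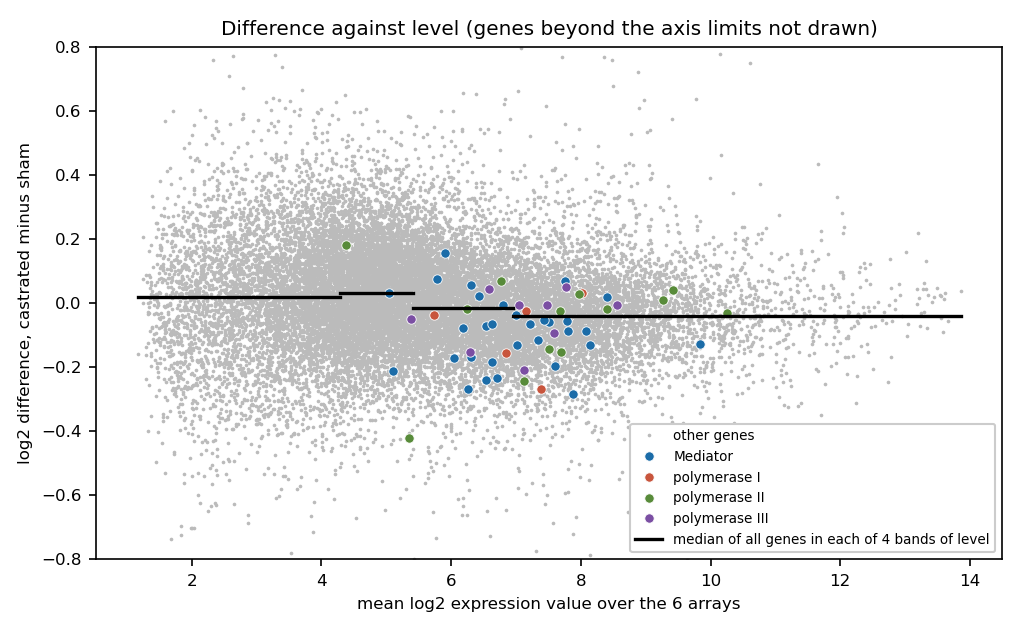
Log2 difference, castrated minus sham, against the mean log2 value over the 6 arrays, with other genes in grey, members in colour and a black line for the median of all genes in each of 4 bands of level. The line goes from 0.020 in the lowest band to −0.041 in the highest, where 33 of the 58 members lie; 37 genes beyond the vertical limits are not drawn.

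The direction of all genes varied with their level on the array, seen when genes were ranked by mean level and split into 4 equal bands of 5545. In the highest band 64.2% of genes were below 0, with a median of −0.041, and this band held 33 members, of which 26, or 78.8%, were below 0. In the third band 54.2% of genes were below 0, with a median of −0.016, and 14 of 20 members, or 70%. The second band held 5 members, 3 of them below 0, where 41.8% of all genes were, and the lowest band held none. Of the Mediator genes 13 of 15 in the highest band and 10 of 14 in the third were below 0. Quantile normalization, which gives the arrays the same distribution, moved the median of the highest band to −0.0072 and the Mediator median to −0.053.

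Other genes of the transcription machinery were taken from lists written for this comparison, and none of them passed over all genes. Polymerase II general factors, which place the enzyme at promoters, had 24 of 31 genes below 0 and a median of −0.077, which was −0.017 without castrated sample 1. Taf7, a TFIID subunit, differed by −0.40 and read 6.14, 6.05 and 6.43 in sham and 5.56, 5.85 and 6.00 in castrated samples, without overlap (limma adjusted p = 0.668). Gtf2b, the factor TFIIB, differed by −0.29 (limma adjusted p = 0.687), also without overlap. Pausing and elongation factors had 16 of 26 below 0 and a median of −0.034, which ran from −0.070 without castrated sample 3 to −0.016 without sham sample 1 and was −0.072 with array medians aligned. Among them Supt16, a histone chaperone of the FACT complex, differed by −0.25 (−0.16 without sham sample 3) and Supt6 by −0.21. Integrator genes had 9 of 14 below 0 and a median of −0.039, which was −0.074 with castrated sample 2 dropped and −0.0029 with castrated sample 1 dropped. Ints1 differed by −0.19 (−0.11 without castrated sample 1) and Ints3 by −0.17.

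Polymerase subunits known by other symbols were 4 of 4 below 0 with a median of −0.12, which ran from −0.21 without sham sample 2 to −0.030 without castrated sample 1. Among them Twistnb differed by −0.22 and Cd3eap by −0.15 (−0.036 without castrated sample 1), both of polymerase I. Polymerase I factors had 4 of 8 below 0 and a median of −0.022, which turned to 0.017 without castrated sample 1. The ribosomal DNA factor Ubtf differed by −0.22, and Taf1a by −0.15 but by −0.030 without castrated sample 1. Polymerase III factors had 10 of 16 below 0 and a median of −0.019, which turned to 0.0016 after quantile normalization, 0.0090 after cyclic loess and 0.018 without castrated sample 1. Snapc3 differed by 0.16 (0.094 without sham sample 2) and Snapc2 by −0.14 (−0.061 without castrated sample 3), both parts of the complex that reads small nuclear RNA promoters.

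Genes of polymerase assembly and of C-terminal tail phosphatases had 4 of 13 below 0 and a median of 0.029. This median was −0.0085 with array medians aligned and ran from −0.0059 without sham sample 3 to 0.11 without castrated sample 1. Among them the phosphatase gene Ctdp1 differed by −0.29, without overlap, and Ctdspl by 0.22 (0.065 without sham sample 1). Mitochondrial transcription genes were 4 of 8 below 0 with a median of −0.0095, which was 0.026 after quantile normalization and ran from −0.061 without castrated sample 2 to 0.060 without sham sample 3. Mterf1a, at the 14.6th percentile of mean level, differed by 0.30, and by 0.052 without sham sample 2 and 0.52 without sham sample 3. Tefm differed by −0.14, and by −0.024 without castrated sample 1. Nuclear receptors and coregulators were 11 of 22 below 0 with a median of 0.0050, which was −0.033 with array medians aligned and was −0.029 with castrated sample 2 dropped and 0.035 with castrated sample 1 dropped. The coactivator Ppargc1a, which docks on Mediator through Med1, read 8.84, 9.03 and 8.97 in sham and 9.41, 10.53 and 10.16 in castrated samples, a difference of 1.09 (limma adjusted p = 0.446). The fat-cell receptor gene Pparg, also counted among the adipocyte markers above, differed by 0.40 (limma adjusted p = 0.658).

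**Figure D5:**
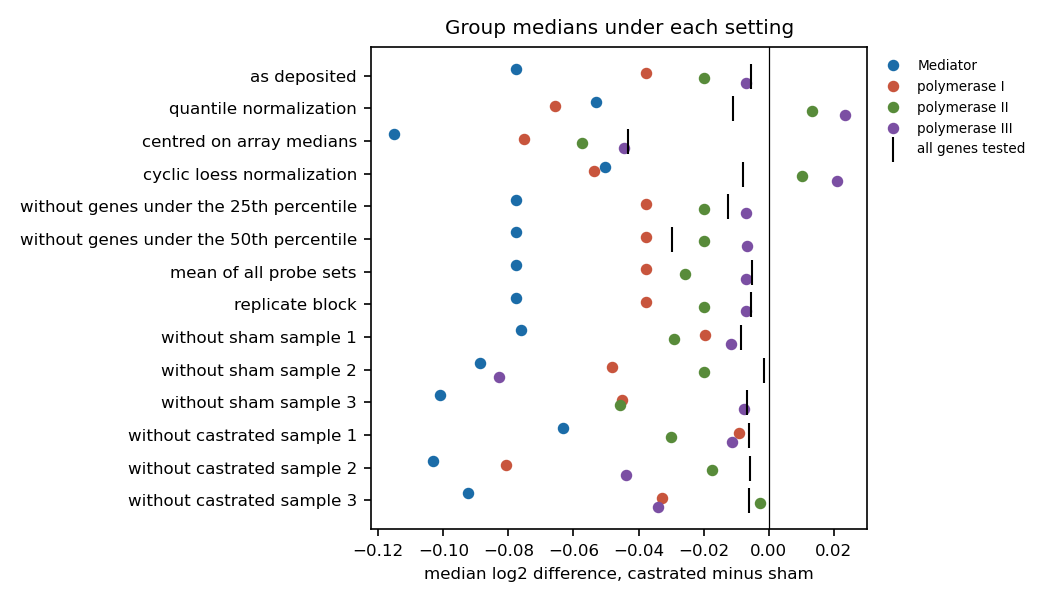
Median log2 difference, castrated minus sham, of the Mediator and of polymerases I, II and III under each processing setting, with a tick for the median of all genes tested. The Mediator point lies between −0.12 and −0.050 in every setting and below the tick each time, and the polymerase II and III points cross 0 after quantile and cyclic loess normalization.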

How the data were processed

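The deposited values are log2 expression per probe set, already normalized by the authors. The submitters' processing notes name Partek, with no version. Background correction, summarization, normalization and genome build: not given in the sources used here. Of 41345 probe sets 23521 name 1 gene, and the one with the highest mean stood for each of 22180 genes, with symbols updated through Entrez identifiers. Array annotation can be old. Arrays have no read depth, and their number limits the precision.

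Groups follow the titles. limma 3.58.1 under R 4.3.3 (lmFit, then eBayes) compared castrated with sham samples, without covariate or filter. P-values were adjusted by Benjamini-Hochberg over the 22180 genes, with 0.05 as threshold. The procedure was tested on simulated data. The changes planted there in single genes were larger than every member difference, so recovery of single genes at the members' sizes was not examined. The labels name a mouse for each sample but no litter or cage, so the p-values reflect only how these samples vary. Members and lists were chosen with earlier results of these data known, and no set test was run. Named were the members with the smallest p (8 in the Mediator, 4 in each polymerase), the largest subunits, Med1, Med14, paralog pairs, the members highest and lowest in mean level, and up to 2 genes of each related list, with a few others named after their values were seen. Alternatives were quantile, cyclic loess and median scaling, dropping the lowest 25 or 50 percent of genes by level, averaging probe sets, a trended robust prior, the replicate number as a block and leaving out each sample. Median scaling aligned the array medians over all 41345 probe sets, which ran from 5.036 to 5.095, not those over genes. Probe sets without a symbol counted in it, and aligning the medians over genes was not tried. Figures were drawn with matplotlib 3.10.9.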

Additional observations from a re-analysis of the deposited data

How the results depend on the processing

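The count of genes past the threshold, 3, became 9 and 16 when the lowest 25 and 50 percent of genes by level were dropped and 10 with a trended robust prior, and was 3 to 4 when a sample was left out. No member passed in any of these settings. The polymerase II median became 0.013 after quantile normalization, 0.010 after cyclic loess and −0.057 with array medians aligned, which also put 61.6% of all genes below 0. Leaving out a sample gave −0.10 to −0.063 for the Mediator median, −0.081 to −0.0090 for polymerase I, −0.046 to −0.0026 for polymerase II and −0.083 to −0.0076 for polymerase III. Without Med9os and Polr2d-ps2, an alternative chosen after seeing the data, the Mediator and polymerase II medians were −0.074 and −0.023. Members near 0 changed sign. After quantile normalization these were Polr2a (0.018), Med12l (−0.0057), Polr3gl (0.035) and Polr2m (0.0078), and after cyclic loess Polr2a (0.021), Med12l (−0.0048), Polr3gl (0.034) and Polr2m (0.0027). With array medians over all probe sets aligned they were Polr1a (−0.0063), Med14 (−0.018) and Med12l (−0.0049). With a sample left out Polr1a ran from −0.017 to 0.082, Polr2a from −0.062 to 0.036, Polr2b from −0.043 to 0.085, Polr2m from −0.058 to 0.015, Med14 from −0.053 to 0.082, Med12l from −0.032 to 0.095, Polr3g from −0.18 to 0.084 and Polr3gl from −0.048 to 0.018. The cause of these changes was not tested. Same-numbered samples deviated together at correlations of 0.076, 0.033 and 0.047, so the numbers were not taken to pair them. With the replicate number as a block 2 genes passed and no member did.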

Other observations

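Further probe sets of member genes, not used above, had differences from −0.25 to 0.31. The extra probe sets of Polr2k differed by 0.027, −0.036 and −0.25, the last at a mean level of 4.30, against 0.028 for the one used, at 7.98. Those of Med7, Med10, Med24, Med26 and Med27 differed by −0.060, 0.14, 0.061, 0.035 and −0.093, and those of Med7, Med24 and Med26 had the opposite sign to the probe set used. For Med7, Med24 and Med26 the extra probe sets had mean levels of 4.56, 5.06 and 4.58, below all array medians over genes. The probe sets used had 6.30, 8.07 and 6.62. The 2 probe sets that name Polr2h together with the gene model Gm7511 differed by 0.041 and 0.23. The probe set that names Igsf10 with Med12l differed by 0.31, and the one that names Dok4 with Polr2c by 0.11. None of these can be assigned to either gene.

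Members and the gene that begins beside them on the opposite strand did not always differ the same way. Polr2l at −0.42 lies beside Tspan4 at 0.14, and Polr1d at −0.27 beside Lnx2 at 0.098. Med22 at −0.27 lies beside Rpl7a at −0.075, Med20 at −0.087 beside Bysl, a ribosome assembly gene, at −0.22, and Polr2i at 0.068 beside Tbcb at −0.23. None of these neighbours passed over all genes, with adjusted p of 0.848 for Tspan4, 0.908 for Lnx2, 0.924 for Rpl7a, 0.744 for Bysl and 0.723 for Tbcb by limma, and these pairs were chosen after their values were seen.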
